A study of Drosophila melanogaster with 32 samples.

Results

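The genes described here are 8 Drosophila eye pigment genes: white (w), clot (cl), light (lt), Punch (Pu), scarlet (st), brown (bw), vermilion (v) and cinnabar (cn). They were chosen by gene symbol from 12073 named genes, and w was treated apart because a functional copy of it is the visible marker carried by the P element itself. The rule found 9 probe sets among the 18769 probe sets of the array that are not array controls, 1 for each gene and a further one for bw. Of these, 7 probe sets reached a signal of 50 on both arrays of at least 1 line and sex, as did 12518 of all probe sets, and entered the tests.

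The study asked which transcripts differ between long-lived insertion lines and their control. Each of 7 lines was homozygous for 1 insertion of the gene trap element P{GT1} in the w1118 Canton S F background, and the control was that background with no element. The tagged genes were pyd in line BG00028, mub in line BG00043, crol in line BG00346, CG10990 in line BG00495, CG9238 in line BG00761 and esg in line BG01042, and each line is called by its tagged gene. No tagged gene is given for the remaining line, BG00817. The w1118 allele, a partial deletion of w, was shared by all 8 genotypes. Virgin flies of each sex were aged to 42 days, pooled and frozen, and RNA of whole flies was hybridised to Affymetrix Drosophila Genome 2.0 arrays, with 2 pools and so 2 arrays for each line and sex, 32 arrays in all. Each tagged gene is represented by a single insertion line, and no source states whether its pools were reared apart, so the p-values reflect pool-to-pool spread only, which may be technical. A whole fly pool cannot tell a change in the number of pigment cells from a change in RNA per cell.

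Fly eye colour comes from brown ommochromes and red pteridines, both stored in pigment granules related to lysosomes. Ommochromes are made from tryptophan: v encodes tryptophan 2,3-dioxygenase, the first enzyme of the path, and cn the kynurenine 3-monooxygenase further along it. Pteridines start from GTP, with the GTP cyclohydrolase encoded by Pu as the entry enzyme, and cl encodes a glutaredoxin-like protein needed for the red drosopterins. The w protein is a transporter subunit that pairs with the st protein to load ommochrome precursors and with the bw protein to load pteridine precursors, and lt encodes Vps41, which brings cargo to the granule. Besides the eye, the Malpighian tubules take up and convert tryptophan, and v also acts in the fat body.

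Signals are MAS5 values scaled so that each array's trimmed mean was 500. The tissue was checked on marker lists. The summed signal of 6 ovary genes was 27450 to 42340 on female arrays and 45.5 to 245.7 on male arrays, and that of 6 testis genes was 8834 to 24060 on male arrays and 38.55 to 139.4 on female arrays, so every array matched its labelled sex. The summed signal of the 7 photoreceptor genes found of 15 listed was 16220 to 25300 in females and 28890 to 37220 in males. Of 10 probe sets for the 6 tagged genes, 3 were called lower in their own line (in mub, CG10990 and CG9238) and 0 higher, with changes from -1.66 to 0.25 on the log2 scale. The log2 ratio of 3′ to 5′ control probe sets, a sign of RNA quality, was 0.86 to 1.00 on the control arrays and above all of these in CG9238 (1.11 to 1.40), BG00817 (1.44 to 1.60) and esg (1.39 to 1.52). In the remaining lines the arrays overlapped with the control. The mean ratio was 0.93 in the control and higher in all 7 lines, from 1.15 in mub to 1.51 in BG00817. The insertion lines and the control thus differed in this ratio too. The part of RNA quality in the results below was not tested.

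The 2 members called in the line comparisons were w and v. Signal of w lay under 50 on all 4 control arrays and was above every control array of the same sex on all 4 arrays of 4 lines. In CG10990 and in BG00817, 1 of the 2 female arrays was itself under 50. Signal of v was higher than on both control arrays of the same sex on every array of all 7 insertion lines. Of the 7 tested members, 1 was called over both sexes in pyd (w), in mub (v) and in crol (v), 2 in CG9238 and in BG00817 (w and v) and 0 in CG10990 and esg. The share of all probe sets called in either direction was 2.09% in pyd, 12.7% in mub, 2.45% in crol, 4.54% in CG9238, 8.4% in BG00817, 1.41% in CG10990 and 5.85% in esg.

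**Figure D1:**
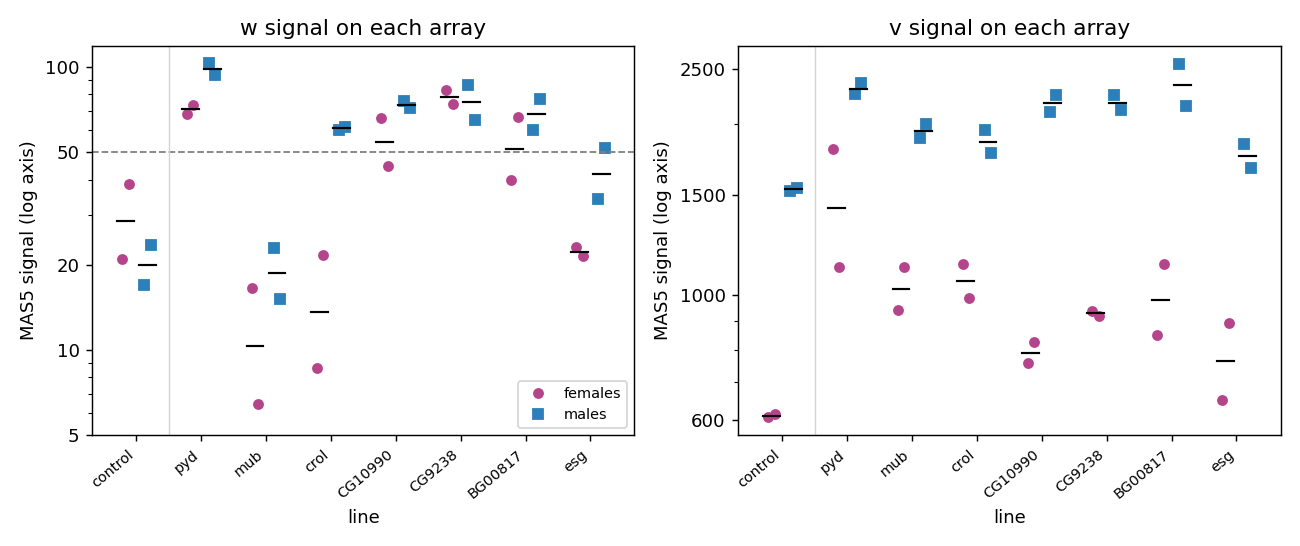
Signal of w and of v on each array (log axes) in the control and the 7 insertion lines, females as circles and males as squares, with a bar at the mean of the 2 arrays. The dashed line at 50 marks the signal below which a value is given as a bound. All 4 control arrays lie under it for w, and for v the control is lowest in each sex.

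For w, the control signals were 20.99 and 38.55 in females and 16.91 and 23.42 in males. In pyd they were 68.28 and 73.43 in females and 103.3 and 94.05 in males, and in CG9238 83.18 and 73.8 in females and 86.49 and 65.09 in males. No array of these 2 lines fell under 50. In CG10990 the females had 66.17 and 44.71 and the males 75.9 and 71.47, and in BG00817 the females had 39.89 and 66.34 and the males 59.86 and 77.36. In each of these 4 lines all arrays read above the control arrays of their sex. The same was true of 6.42% of all probe sets in pyd, 5.36% in CG9238, 7.09% in CG10990 and 8.9% in BG00817. In CG10990 and BG00817 this includes 1 female array under 50, where signals have no order.

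The remaining 3 lines differed from these and from each other. In crol the male arrays read 60.11 and 61.27, above both control males, while the female arrays read 8.606 and 21.69 and overlapped with the control. In esg the males read 34.23 and 51.55, with only the latter above 50, and the females read 23.09 and 21.42. In mub, which carries the same element, all 4 arrays were under 50. They read 16.52 and 6.441 in females and 22.96 and 15.19 in males. Signals under 50 have no order. The control, mub, the females of crol and esg and the dimmer esg male array thus cannot be ranked. Among males, both pyd arrays lay above those of every other line, and the arrays of CG9238, CG10990 and BG00817 overlapped.

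In the limma fit over both sexes, w was called higher in pyd (by 1.81 on the log2 scale, SE 0.22, adjusted p = 0.0225), in CG9238 (by 1.69, SE 0.24, adjusted p = 0.0243) and in BG00817 (by 1.31, SE 0.28, adjusted p = 0.0482). Of all tested probe sets, 1.16%, 1.53% and 4.07% were called higher in these 3 lines. Because the control lay under 50, these fitted changes are not sizes. With control signals raised to 50, w was at least 1.67-fold higher in pyd and at least 1.53-fold higher in CG9238. No bound is given for BG00817, where 1 female array was itself under 50. CG10990, whose 4 arrays also read above the control (1 of them under 50), missed the threshold (1.41, SE 0.25, adjusted p = 0.0705). In crol (0.28, SE 0.35), esg (0.36, SE 0.25) and mub (-0.78, SE 0.38) w was not called. The w probe set passed the signal filter only through insertion line groups, where it is high, and with no filter all 3 calls were lost (adjusted p = 0.0706 in pyd, 0.0652 in CG9238 and 0.106 in BG00817). Each call was also lost when single arrays were left out: the adjusted p reached 0.116 in pyd, 0.0945 in CG9238 and 0.153 in BG00817, and either control male array was among those whose loss ended each call.

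In males alone, w was called higher in 5 of the 7 lines. The fold was at least 1.97 in pyd (adjusted p = 0.000521), at least 1.5 in CG9238 (adjusted p = 0.00274), at least 1.47 in CG10990 (adjusted p = 0.00328), at least 1.36 in BG00817 (adjusted p = 0.00342) and at least 1.21 in crol (adjusted p = 0.00603). All 5 male calls were kept whichever of the 16 male arrays was left out. Here too the w probe set had entered the tests only through insertion line groups, where it is high. Both control male arrays were under 50. With no filter on low signal the 5 calls were kept. The share of all probe sets called higher in males of these lines was 4.23%, 1.49%, 1.48%, 2.89% and 7.72%, in the order given. In esg the male change was 1.08 (adjusted p = 0.0982) and in mub males -0.092 (adjusted p = 0.908).

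In females alone, w was not called in any line. The female changes had an SE of 0.53 against 0.26 in males, and ran from -1.46 in mub (adjusted p = 0.0729) to 1.46 in CG9238 (adjusted p = 0.263). The male change exceeded the female change by 2.67 (SE 0.71) in crol, where only the males lay above the control. This difference did not pass (adjusted p = 0.17, with 0.328% of probe sets called), nor did that of any other line, where it was 0.45 to 1.43. Whether w responds differently in the sexes was thus not shown.

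Over all 32 arrays, w varied among the 8 genotypes (F-test, adjusted p = 1.96e-05 against a threshold of 0.001, which 10.1% of all probe sets passed). In these tests as well, w had passed the signal filter only through insertion line groups. The mean of the 7 insertion lines was above the control by 0.87 (SE 0.23, adjusted p = 0.0266), a comparison in which 4.29% of probe sets were called higher. Without the 4 arrays of pyd, an exclusion chosen after the data were seen, this was 0.71 with adjusted p = 0.0748, and the call was also lost without the first control female array or either control male array (adjusted p up to 0.166). The control differed from all the lines in carrying no P element, so the element's own w marker, the tagged site and the line cannot be told apart here. Whether the probe set reads the marker copy or what remains of the resident w1118 allele was not tested.

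For v, the control arrays read 607.5 and 615.1 in females and 1527 and 1543 in males. Female signals were 1809 and 1119 in pyd, 938.5 and 1121 in mub, 1132 and 985.6 in crol, and 757.9 and 824 in CG10990. They were 937.2 and 917.8 in CG9238, 848.5 and 1132 in BG00817, and 651.3 and 892.7 in esg. Every insertion female thus lay above both control females, with pyd highest and esg and CG10990 nearest to the control. Male signals were 2262 and 2361 in pyd, 1892 and 2004 in mub, 1950 and 1778 in crol, and 2106 and 2257 in CG10990. They were 2249 and 2120 in CG9238, 2559 and 2155 in BG00817, and 1842 and 1673 in esg. The males showed the same separation from the control, with BG00817 highest and esg lowest of the lines.

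A complete separation of this kind, all insertion arrays above the control arrays of their sex, was found for 19 of the 12518 tested probe sets (0.152%), and the opposite for 26 (0.208%). All the lines were compared with the same 4 control arrays, so the 7 comparisons are not independent. When the lines were ordered by mean log2 signal of v, 2 of the 7 neighbouring pairs were apart in females and 3 in males, so that most of the insertion lines could not be ordered among themselves.

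In the limma fit over both sexes, v was called higher in 4 lines: CG9238 (by 0.56, SE 0.06, 1.47-fold, adjusted p = 0.0102), mub (by 0.54, SE 0.08, 1.46-fold, adjusted p = 0.0234), BG00817 (by 0.65, SE 0.12, 1.57-fold, adjusted p = 0.0317) and crol (by 0.53, SE 0.08, 1.45-fold, adjusted p = 0.0377). The share of all probe sets called higher was 1.53%, 6.83%, 4.07% and 1.53% in these lines, and 80 probe sets (0.639%) were called higher in at least 4 lines. The change was larger but more variable in pyd (0.91, SE 0.17, 1.87-fold, adjusted p = 0.0631), and smaller in CG10990 (0.44, SE 0.08, adjusted p = 0.0683) and esg (0.26, SE 0.11, adjusted p = 0.226). Of the 8 fits that each left out 1 array, the call was kept in 6 for CG9238, 4 for mub, 1 for BG00817 and 0 for crol (adjusted p up to 0.16), and leaving out either control male array ended all 4. The crol call was also lost in 5 of 9 alternatives, among them centred arrays (adjusted p = 0.0518) and no filter on low signal (adjusted p = 0.115).

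Within females, v was called in pyd (2.33-fold, SE 0.24 on the log2 scale, adjusted p = 0.0239) and in mub (1.68-fold, adjusted p = 0.0472), where 2.23% and 10.2% of probe sets were called higher. Within males it was called in pyd (1.51-fold, SE 0.11 on the log2 scale, adjusted p = 0.00892), BG00817 (1.53-fold, adjusted p = 0.00968), CG10990 (1.42-fold, adjusted p = 0.0354) and CG9238 (1.42-fold, adjusted p = 0.0356). The share of all probe sets called higher in males of these lines was 4.23%, 2.89%, 1.48% and 1.49%, in the order given. The male call in CG10990 was lost in 10 of the 16 fits that left out a male array (adjusted p up to 0.195 over all alternatives). Of the other within-sex calls, that in mub females was lost in 10 of 16 and that in CG9238 males in 8 of 16. No difference between the male and the female change of v passed the test.

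Averaged over the 7 insertion lines, v was 1.47-fold higher than in the control (0.55 on the log2 scale, SE 0.10, adjusted p = 0.00169, limma). This call held under each of 8 alternative settings and with each of the 32 arrays left out (adjusted p from 0.000156 to 0.0174), and without pyd the mean change was 0.50 (adjusted p = 0.000978). Among genotypes v fell just short of the stricter threshold of 0.001 (adjusted p = 0.00133). In the same average over lines, 4 of 7 photoreceptor genes were called higher (median change 0.20), against 4.29% of all probe sets. The eye pigment cell gene Pdh, a retinol dehydrogenase, was also called higher (0.23, adjusted p = 0.0141). Of 5 Malpighian tubule genes 0 were called (median -0.075), against 8.52% of all probe sets in either direction. In the lines where v was called over both sexes, the median photoreceptor change was 0.42 in mub, 0.33 in crol, 0.18 in BG00817 and 0.004 in CG9238. Pdh changed by 0.33, 0.33, 0.17 and -0.20 in the same order. The photoreceptor genes called higher were 4 of 7 in mub and 1 of 7 in BG00817, against 6.83% and 4.07% of all probe sets. The part of eye tissue content in the v differences was not tested. Over the 16 line and sex means with the mean of each sex taken off, r between v and Pdh was 0.14. Between v and the 7 photoreceptor genes it ran from -0.13 (trp) to 0.32 (Arr2). With the 5 tubule genes it ran from -0.42 (ZnT35C) to 0.053 (Irk3). These values are given as a description only, since the means share arrays and scaling.

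**Figure D2:**
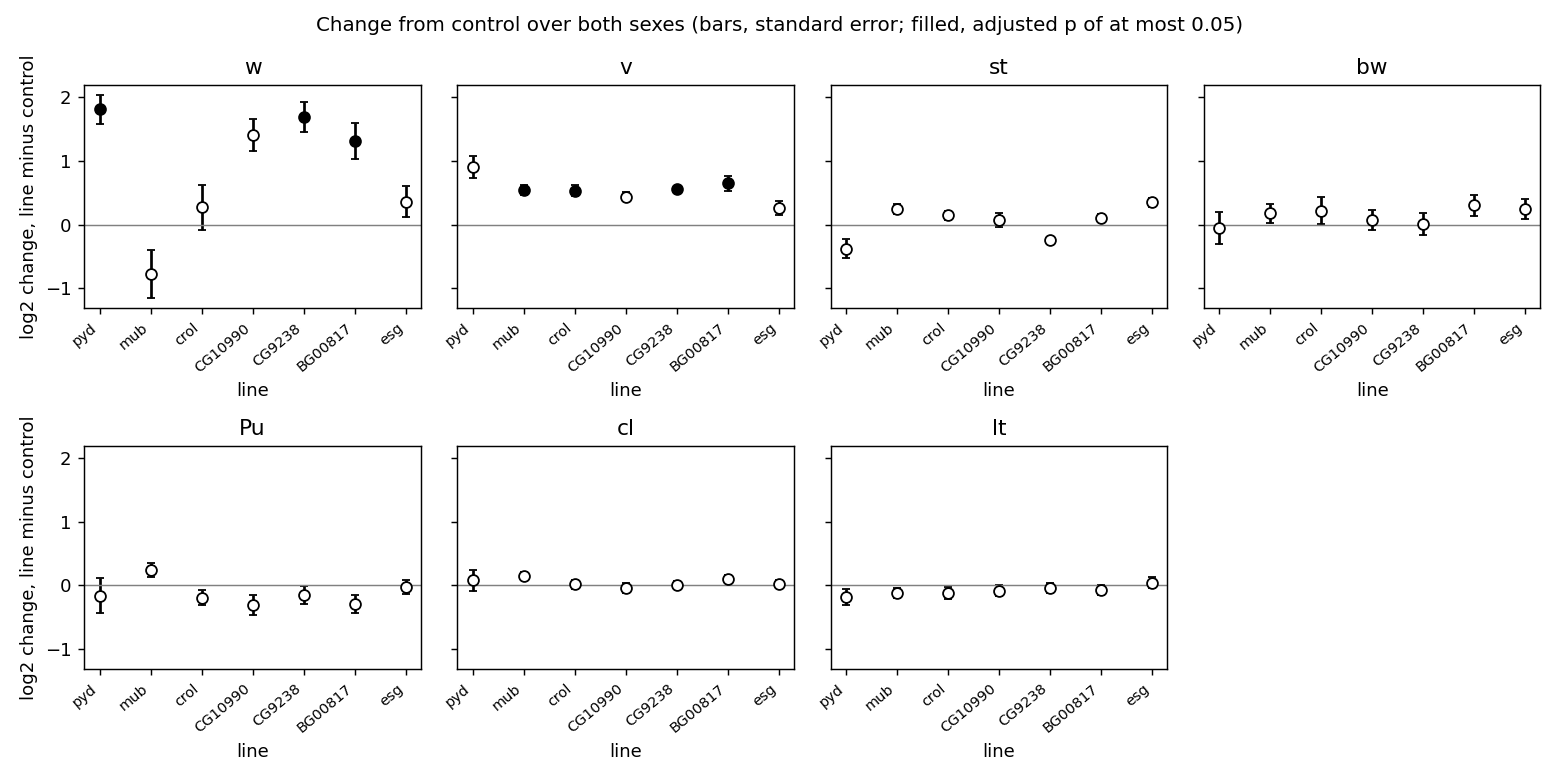
Change of each tested member in each insertion line against the control over both sexes (log2 scale, limma estimate with its standard error). Filled points passed an adjusted p of 0.05: 3 for w, 4 for v and none for st, bw, Pu, cl or lt.

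Outside w and v, no member was called in any line over both sexes or within a sex. The 6 tested members other than w had a median change over the insertion lines of 0.043, against -0.038 for all probe sets. Their changes from the control over both sexes ran from -0.38 (st in pyd) to 0.91 (v in pyd).

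The transporter partner genes st and bw differed in how far they moved. For st, the control females read 299.1 and 303.5 and the control males 646.4 and 631.4. In pyd the females read 163.6 and 240.2 and the males 604.7 and 546.5, and in CG9238 the females read 237.2 and 231.2 and the males 561.7 and 604.9, so both lines lay below the control in both sexes. In esg the females read 485.6 and 411.4 and the males 713.8 and 680.7, and in BG00817 the females read 335.3 and 323.3 and the males 658.6 and 702.2, so both lines lay above it.

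Against the control, none of these lines passed: the change of st was -0.38 (SE 0.15, adjusted p = 0.277) in pyd, -0.25 (adjusted p = 0.0863) in CG9238, 0.35 (adjusted p = 0.0589) in esg and 0.11 in BG00817. In esg the change passed with log2 of signal plus 32 (adjusted p = 0.0351) and at a signal of at least 100 (adjusted p = 0.0457), and in pyd it passed when all 32 arrays shared one fit (adjusted p = 0.0219). All 4 arrays lay above the control for 9.59% of probe sets in esg, and below it for 8.64% in pyd and 10.9% in CG9238. Mean st signal was lowest in pyd and highest in esg in both sexes. The pyd arrays overlapped those of CG9238, and the esg arrays those of mub, in each sex. Among the 8 genotypes st varied past the threshold of 0.001 (range of the line changes 0.73, adjusted p = 0.00038), the only member besides w to do so. This call was kept in 25 of the 32 fits that left out 1 array, and without a filter on low signal the adjusted p was 0.00116. The median change of the photoreceptor genes was 0.44 in esg, where mean st was highest (3 of 7 called higher, against 3.19% of all probe sets). It was 0.004 in CG9238 and -0.005 in pyd, where st was lowest, and 0.15 to 0.42 in the other lines. The summed photoreceptor signal in males, however, averaged 35630 in pyd and 31910 in esg, against 29960 in the control. In females it averaged 16980, 21660 and 17410 in the same order. Over the 16 sex-centred means r between st and the 7 photoreceptor genes ran from 0.40 (Arr2) to 0.89 (inaC). With the eye pigment cell gene Pdh it was 0.58, and with the 5 tubule genes it ran from 0.025 (ZnT35C) to 0.77 (Uro). The part of eye tissue content in the st differences was not tested.

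For bw, signals were 45.03 to 96.17 in females and 92.59 to 186 in males, and the order of lines had no neighbouring pair apart in either sex. Changes over both sexes ran from -0.06 in pyd to 0.30 (SE 0.16) in BG00817. The further bw probe set passed 50 on only 1 female array of mub (55.93) and 1 male array of pyd (60.06) and was not tested. The cn probe set read 0.51 to 12.12 across all 32 arrays, so this ommochrome enzyme lay under the signal minimum in every line, and no fold is given.

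**Figure D3:**
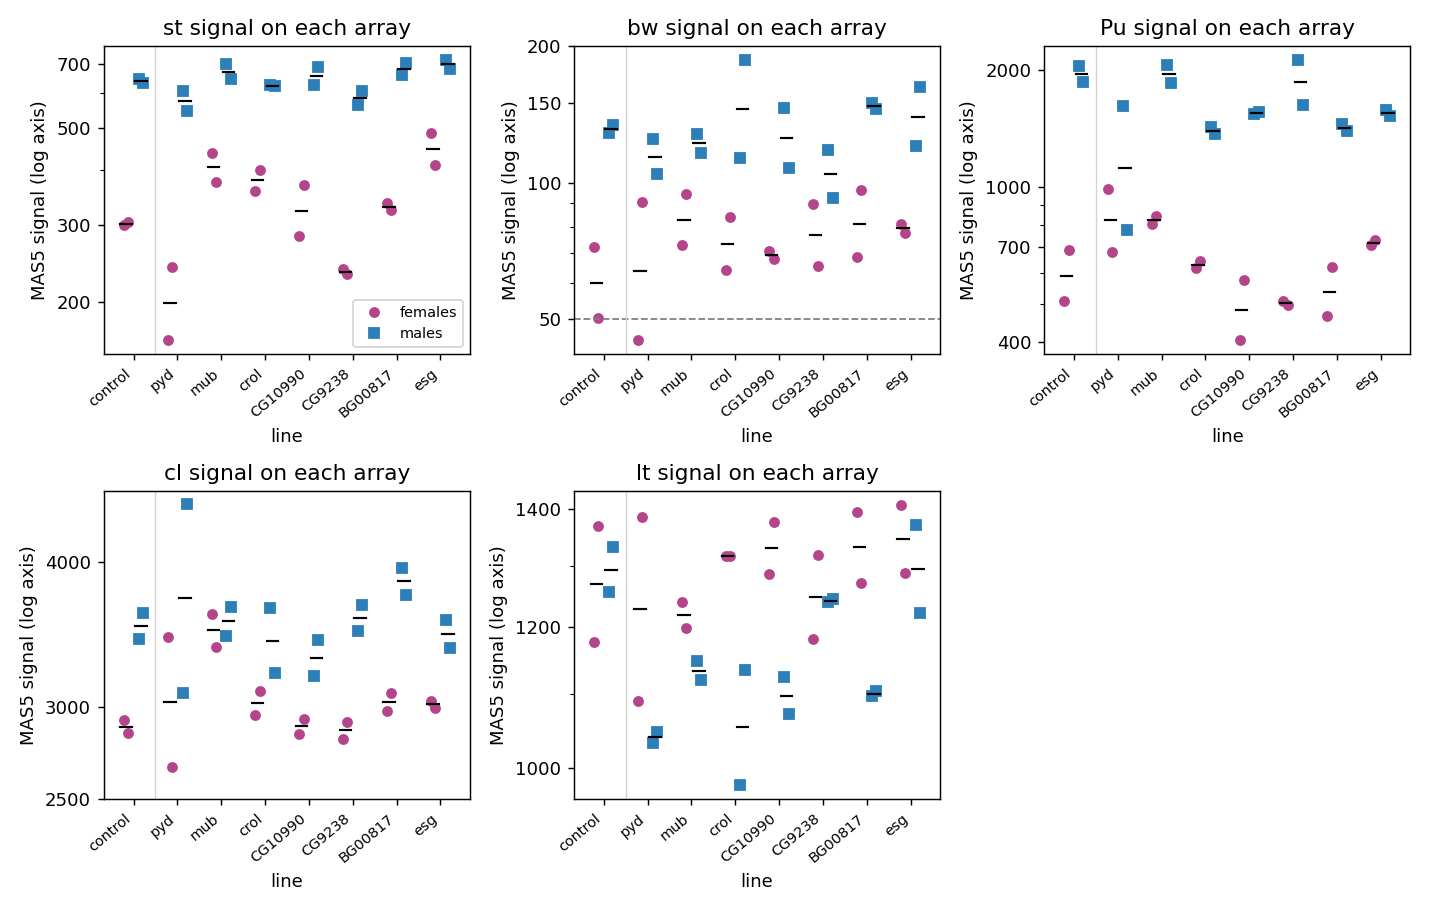
Signal of st, bw, Pu, cl and lt on each array (log axes) in the control and the 7 insertion lines, females as circles and males as squares, bars at the mean of 2 arrays. The dashed line in the bw panel marks 50. For st, pyd is lowest and esg highest by mean in both sexes, with arrays that overlap those of other lines. The pyd arrays of Pu and cl lie far apart within a sex.

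Pu signals were 405 to 990.9 in females and 774.6 to 2121 in males. In males of 5 lines both arrays lay below the control males, which read 2041 and 1864, a pattern shown by 26% to 35.5% of all probe sets in these lines. The largest fall was in pyd (1615 and 774.6, change -0.80, SE 0.26, adjusted p = 0.0937), whose pair of arrays lay wide apart. The change of Pu in crol males, -0.48, had adjusted p = 0.253 with pyd in the fit and 0.0331 without it. Over both sexes Pu ranged from -0.31 in CG10990 to 0.24 in mub.

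The remaining pteridine and granule members were the steadiest across lines. For cl, changes over both sexes ran from -0.045 in CG10990 to 0.15 in mub, with SEs of 0.06 to 0.16. For lt, they ran from -0.18 in pyd to 0.043 in esg. In males, lt lay below both control males on both arrays of 6 of the 7 lines (the exception was esg), with changes down to -0.31 in pyd (SE 0.10, adjusted p = 0.083) and -0.30 in crol (adjusted p = 0.0767). Since 912 probe sets (7.29%) showed the same male pattern in at least 6 lines, it did not set lt apart. The male lt changes passed in an analysis of variance on untransformed signal in pyd (adjusted p = 0.0373) and in crol (adjusted p = 0.0357).

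Other genes of the same pathways were followed from a list of 28, of which 26 were on the array and 25 were tested. These were 2 genes of the ommochrome list (KFase and Kyat), 9 pteridine genes and 14 granule and vesicle trafficking genes. The third listed ommochrome gene, cd, lay under the signal minimum. In the line comparisons over both sexes, 3 pteridine genes were called in at least 1 line, Dhpr, se and ry. No gene of the ommochrome or granule list was. Of the 25 genes, 1 was called in pyd, 1 in crol, and 1 higher and 1 lower in BG00817. In these lines 2.09%, 2.45% and 8.4% of all probe sets were called. None of the 25 was called in the other lines, where the share was 1.41% (CG10990) to 12.7% (mub).

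Dhpr, which encodes dihydropteridine reductase, a recycling enzyme of pterin cofactors, was lower in pyd and crol. Its control signals were 1008 and 1096 in females and 1331 and 1243 in males. In pyd they were 442 and 557.6 in females and 426 and 370.1 in males, and in crol 407.2 and 464.1 in females and 384.2 and 452.3 in males. All 8 of these arrays lay below every control array. Over both sexes Dhpr fell by 1.39 on the log2 scale in pyd (SE 0.12, adjusted p = 0.00792) and by 1.45 in crol (SE 0.09, adjusted p = 0.003), lines in which 0.935% and 0.927% of probe sets were called lower. The crol call was kept under all alternatives and with any array left out, and the pyd call was lost only without either control male array (adjusted p up to 0.0711). In the other 5 lines Dhpr was not called.

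The other 2 genes changed in BG00817. The se gene, which encodes the synthase of a drosopterin intermediate, read 76.41 and 76.73 in control females and 120.3 and 135.7 in BG00817 females, and 169.4 and 136.7 in control males against 229.5 and 258.8. It was higher by 0.71 (SE 0.10, adjusted p = 0.0162). The xanthine dehydrogenase gene ry read 242 and 193.7 in control females and 160.4 and 169.9 in BG00817 females, and 631.4 and 665.1 in control males against 455.7 and 448. It fell by 0.46 (SE 0.09, adjusted p = 0.0413), in a line with 4.34% of probe sets called lower. Both genes were separated from the control on all 4 arrays, as were 8.9% of all probe sets above it and 13.5% below it in BG00817, and the ry call was kept in only 1 of the 8 fits that left out an array, and that of se in 5 of 8.

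**Figure D4:**
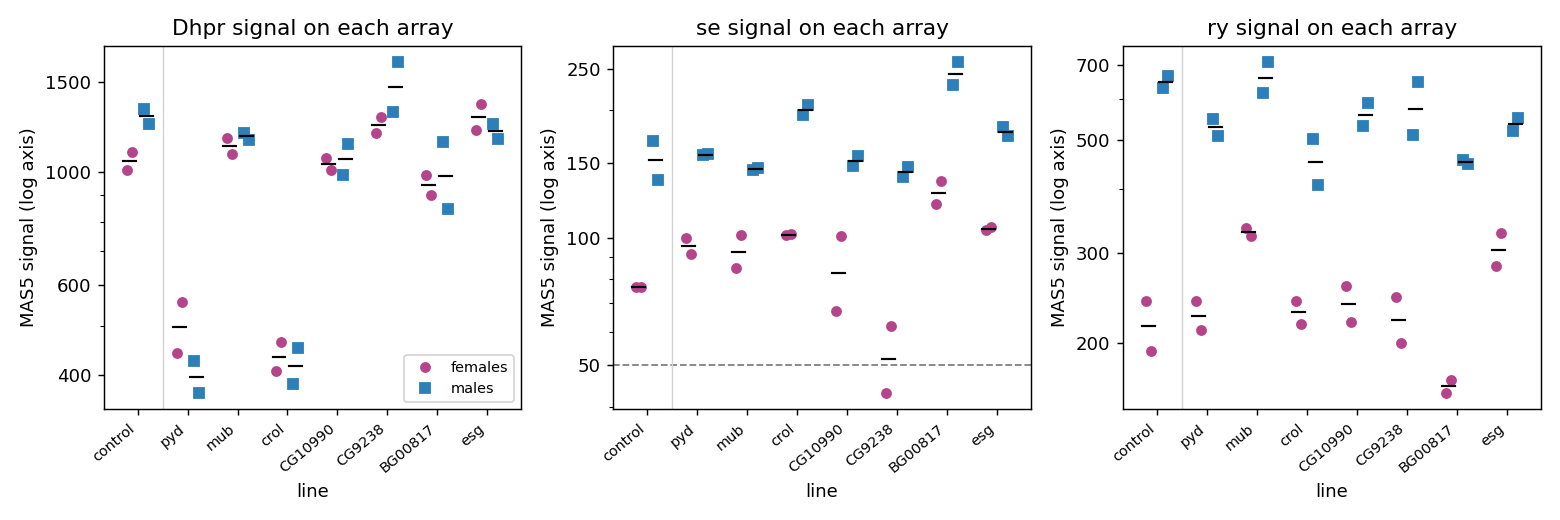
Signal of the pteridine genes Dhpr, se and ry on each array (log axes), females as circles and males as squares, bars at the mean of 2 arrays. The pyd and crol arrays of Dhpr lie between 370.1 and 557.6, below all others, while se is highest and ry lowest among females in BG00817.

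Within a sex, a few more of the 25 genes passed in single lines. In females, the kynurenine formamidase gene KFase rose in mub (0.75, adjusted p = 0.0134), ry rose in mub (0.61, adjusted p = 0.021), the granule gene Rab32 fell by 0.41 in mub (adjusted p = 0.0499) and car, which encodes Vps33, fell by 1.05 in pyd (adjusted p = 0.0379). In mub females 24.1% of all probe sets were called and in pyd females 3.9%. In males, the adaptor subunit gene g fell by 0.59 in pyd (adjusted p = 0.0136), and in crol ry fell by 0.52 (adjusted p = 0.0404) and se rose by 0.39 (adjusted p = 0.0477), with 8.8% of all probe sets called in pyd males and 12.9% in crol males. The se call in crol males was lost in 7 of 10 alternatives and in 13 of the 16 fits that left out an array.

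Between the sexes, 5 of the 6 tested members other than w were higher in males and 1 lower (adjusted p of at most 0.001), in a comparison in which 46.2% of all probe sets were called higher and 37.9% lower. The male signal was 2.51-fold for Pu (log2 difference 1.33, SE 0.09), 2.17-fold for v (1.12, SE 0.07), 2.02-fold for st (1.01, SE 0.05), 1.76-fold for bw (0.81, SE 0.11) and 1.17-fold for cl (0.23, SE 0.05), while lt was lower in males by 0.16 (SE 0.04, adjusted p = 0.000992). These values depend on scaling, since array medians were 48.18 to 71 in females and 115.5 to 141.1 in males and the median of all probe sets was 0.20 higher in males. With quantile normalization that median was -0.12, and with arrays centred on their medians it was 0.41. Pu, v and st kept their direction and call under both scalings, but bw turned to -0.27 with quantile normalization, and lt to 0.043 with quantile normalization and 0.061 with centred arrays. The cl call was lost with quantile normalization (0.092, adjusted p = 0.0405). The lt call was kept in only 5 of the 32 fits that left out 1 array and in 2 of 7 alternatives. For w, the male excess of 0.58 (SE 0.15, adjusted p = 0.00157) was not called, was 0.80 with centred arrays and turned to -1.34 with quantile normalization, so no direction is given.

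The pathway lists differed in this comparison. Both tested genes of the ommochrome list were higher in males, KFase by 1.56 and Kyat by 0.40. Kyat acts on kynurenine, and its part in making pigment was not tested. Of the pteridine genes, 2 were higher (ry by 1.21, se by 0.92) and 5 lower, and of the granule genes 0 were higher and 10 of 14 lower, with a median of -0.48. With quantile normalization the counts were 3 higher and 5 lower for the pteridine genes, with se no longer called (0.13, adjusted p = 0.0724), and 1 higher and 7 lower for the granule genes. With centred arrays they were 4 and 4, and 1 and 8. Eye markers moved the same way as v, st and Pu: all 7 photoreceptor genes were higher in males (median 1.31), as was Pdh (1.23), and of the tubule genes 4 were higher and 1 lower (median 0.94), or 3 and 0 with quantile normalization, where Lkr turned from 0.94 to -0.12. Female flies carry ovaries that males lack, and the part of body composition in the sex differences was not tested.

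**Figure D5:**
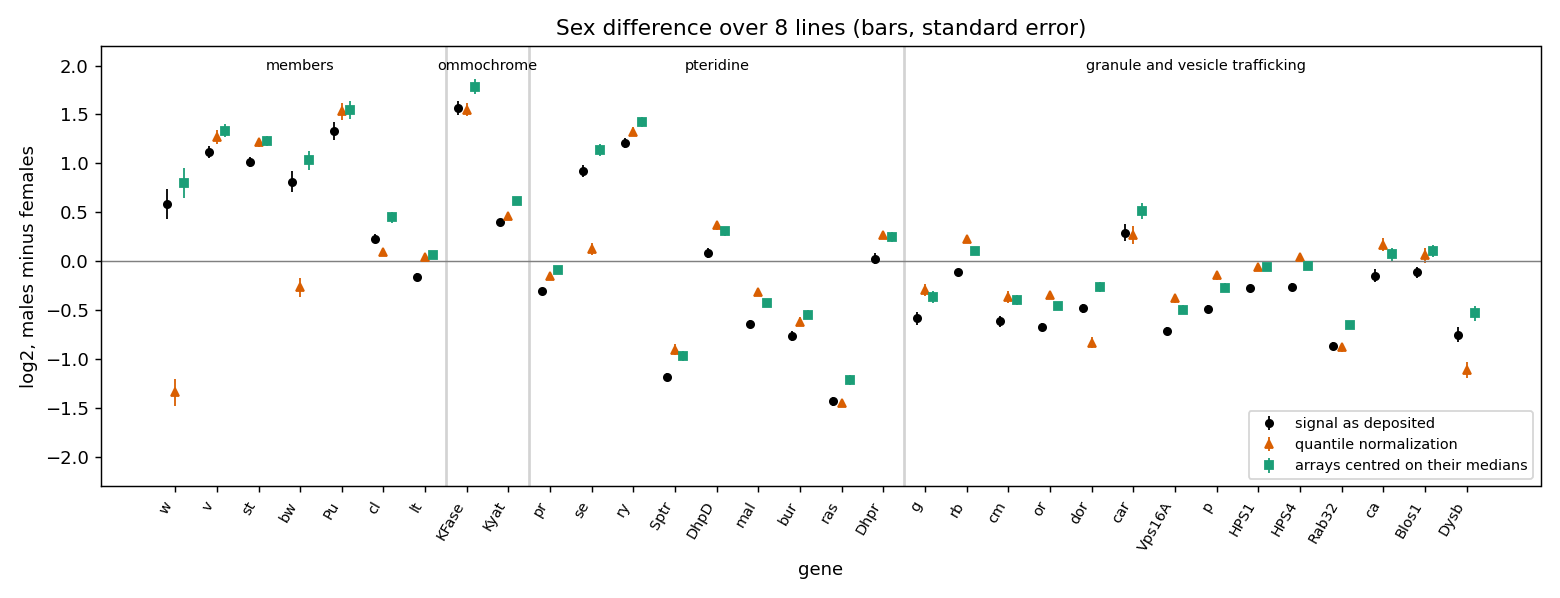
Difference between males and females over the 8 genotypes (log2, with standard error) for the tested members and the other pigment genes, from the deposited signal, after quantile normalization and with arrays centred on their medians. Pu, v, st, KFase and ry lie above 0 under all 3 scalings, while w, bw and lt change sign.

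The genes most like each member were sought over the 16 sex-centred line means among 11164 probe sets with a single gene symbol, as a description. For v they were CG16926 (r = 0.87), CG1806 and CG10814 (both 0.84), the last with a mean signal of only 15.83. For w they were wisp (0.87), l(3)mbt (0.84) and CG17776 (0.82), and for st Rab3-GEF (0.94), CG7882 (0.93) and bowl (0.93). For Pu they were CG11658 (0.92), Edem2 (0.91) and CRMP (0.88). For lt they were Smg6 (0.90), Eogt (0.89) and CHOp24 (0.85), for cl Lapsyn, CG42394 and CG5399 (0.87 to 0.88), and for bw Cc2d2a (0.85, mean signal 26.87), AMPKalpha (0.82) and MFS12 (0.80). The w values rest largely on signals under 50.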

How the data were processed

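The authors deposited MAS5 signal intensities, a linear value computed from perfect match and mismatch probes and scaled per array. A trimmed mean of 500 on each array (2% off each end) was found in the values, and the software version is not given in the sources used here. Probe sets were named by the platform annotation and, for 92 of them (w and v included), by the study's list of gene names. After removing 183 control probe sets, those with a signal of at least 50 on both arrays of at least 1 line and sex were kept. The w probe set passed through insertion line groups only. Log2 signals were fitted with limma 3.58.1 in R 4.3.3, with Benjamini-Hochberg adjustment over all kept probe sets. Each line was compared with the control over 8 arrays (4 residual degrees of freedom), within each sex over 16 arrays (8 degrees of freedom), and genotype, sex and the mean of the insertion lines were tested over 32 arrays (16 degrees of freedom). Thresholds were an adjusted p of 0.05, and of 0.001 for genotype, sex and their interaction. The script was tested on simulated data. Bounds raise the dimmer group's signals to 50 and are given only where no array of the other group was under 50. The number of arrays limits the precision. Likeness was ranked by Pearson correlation, and other pathway genes were named when called in at least 1 line over both sexes, with within-sex calls added after their values were seen. Same-numbered arrays were not shown to be pairs. The members and lists were chosen with earlier results of these data known.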

Additional observations from a re-analysis of the deposited data

Results flagged for a closer look

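In 4 cases both female arrays of a line lay above the control females and both male arrays below the control males, so that the sexes moved in opposite directions. None of the differences between the male and the female change passed the limma interaction test. For Pu in esg, the male minus female change was -0.62 (SE 0.22, adjusted p = 0.285), with 0.28 in females and -0.33 in males. For bw in mub it was -0.56 (SE 0.30, adjusted p = 0.335), with 0.46 in females and -0.10 in males. For st in crol it was -0.36 (SE 0.14, adjusted p = 0.298), with 0.33 in females and -0.036 in males. For the pathway gene ry in esg it was -0.77 (SE 0.20, adjusted p = 0.192), with 0.49 in females and -0.27 in males. The same pattern was shown by 5.11% of all probe sets in esg, 6.96% in mub and 6.78% in crol.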

How the results depend on the processing

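The 7 member calls over both sexes became 4 in an analysis of variance on untransformed signal, 11 with log2 of signal plus 32, 1 with no filter on low signal and 0 to 8 with single arrays left out. The 2 female calls became 8 when all 32 arrays shared one fit, 0 with untransformed signal, 0 with no filter and 0 to 4 with arrays left out. The 9 male calls became 5 in one fit of 32 arrays, 4 at a signal of at least 100, where w was no longer tested, and 5 to 11 with arrays left out. The difference between the sexes within a line, with 0 member calls, gave 1 in one fit of 32 arrays and 1 with log2 of signal plus 32, w in crol both times. The 2 genotype calls became 1 with no filter, 1 at a signal of at least 100 and 1 to 3 with arrays left out. The 2 calls of the insertion line mean became 1 at a signal of at least 100, 1 without pyd and 1 to 2 with arrays left out. The 6 sex calls became 4 with quantile normalization, 5 with no filter, 5 with the replicate block, 7 with untransformed signal and 5 to 6 with arrays left out. The 4 with quantile normalization were Pu, v and st, kept from the 6, and w, newly called and lower in males (limma, adjusted p = 2.44e-08). With untransformed signal w was the added call. With centred arrays and with log2 of signal plus 32, w was called in place of lt. The sex difference turned to -0.27 for bw and -1.34 for w under quantile normalization and to 0.043 (quantile) and 0.061 (centred arrays) for lt. Counts over all probe sets moved by over 1.5 times: with no filter on low signal, 70 in place of 262 in pyd, 149 in place of 1591 in mub and 80 in place of 732 in esg, and in one fit of 32 arrays 1758 in pyd. Same-numbered arrays deviated from their group means with r of -0.14 to 0.08 over 14 line and control pairs, so the numbers were not shown to pair arrays. With the replicate block, 4 of the member calls over both sexes and 1 female call were left, and a crossed pairing, added after the data were seen because 2 of the 14 correlations were under -0.1, gave 4 and 1. Signals of w in the control and in mub, and of cn on all arrays, lie under 50 and set only an upper bound.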
